A study of Mus musculus with 20 samples.

Results

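The genes described are Prom1, Notch1, Hes1, Hes5, Id1, Id2, Id3, Id4, Nes and Sox2, a set of Notch, Id and neural progenitor genes. All probes that carry these symbols were taken, which gave 12 of the 24620 probes of the array and 10 of the 15785 genes named on it. Nes and Sox2 have 2 probes each and the other 8 genes have 1. Of the 12 probes, 11 were detected often enough to be tested, and 10447 probes of the whole array were. The RNA came from primary cortical neurons, cultured from fetal cortices of Swiss albino mice at gestation day 15 to 16 and kept to culture day 7. Cultures were put under oxygen-glucose deprivation (OGD), a dish model of the loss of blood supply in stroke, with an oxygen partial pressure below 50 mm Hg, for 10 min, 5 h, 8 h, 15 h or 24 h. There were 3 arrays for each time and 5 arrays of untreated control cultures of the same strain and age.

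Notch receptors are cut after they bind a ligand on a neighbouring cell, and their freed inner part joins the DNA-binding protein RBPJ to switch on genes such as Hes1 and Hes5, repressors that keep neural progenitors from becoming neurons. Id proteins bind E proteins and so hold back the proneural factors, and bone morphogenetic proteins are known to induce them. In the developing cortex the same genes mark radial glia and neural stem cells, and several remain on in astrocytes.

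The arrays were single-colour Illumina bead arrays, on which each value is the mean brightness of the beads of a probe. Median signal was 53.1 to 65.4 per array, and 37% to 40.9% of probes were detected, meaning a detection p under 0.01 against the negative controls of the array. Levels are given as log2 of the background-corrected and quantile-normalized signal, and a difference of 1 is 2-fold. A change was called where limma's adjusted p was under 0.05 over all tested probes. The 20 arrays lay on 3 slides. Slide 1 held control replicate 1 and the 10 min arrays, slide 2 the 5 h and 8 h arrays beside control replicates 4 and 5, and slide 3 the 15 h and 24 h arrays beside control replicates 2 and 3. Comparison within a slide therefore rests on 1 control at 10 min and on 2 controls at the other times. The source of the replicates is not given in the labels, and the p-values therefore reflect the spread between these arrays alone, which may be technical. The label of the cells was checked on 12 neuron markers. Of the 11 with a probe, 9 were detected, among them Map2 and Tubb3, and the probes of Snap25 and Nefl were not detected on any array. Among 12 astrocyte markers, 9 were detected as well. In RNA from whole cultures, more cells of a type and more RNA per cell cannot be told apart.

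Several of the genes were higher than in the controls after 10 min, 15 h and 24 h of OGD, and none was called at 5 h or 8 h. At 10 min, Prom1, Id4, Id1 and Notch1 were called, 4 of the 11 tested probes, all higher. In the same direction, 11% of all tested probes were called. At 15 h, Prom1, Notch1, Id4, one Sox2 probe and Nes were higher, 5 of 11 probes, where 18.7% of all tested probes were called higher. At 24 h, Prom1, Notch1, Id4, Id3 and Id1 were higher, also 5 of 11, against 14.7% of all probes. No member was called lower than control at any time, where 9.39%, 19.9% and 14.4% of all probes were at 10 min, 15 h and 24 h. Prom1, Notch1 and Id4 were thus called at all of 10 min, 15 h and 24 h, whereas Hes1, Hes5, Id2 and Sox2 probe 2230491 were not called against the controls at any time in the main analysis. The median log2 change of the 11 probes was 0.26 at 10 min, -0.11 at 5 h, 0.06 at 8 h, 0.31 at 15 h and 0.33 at 24 h. The median over all 10447 probes was -0.01, 0.00, 0.00, -0.02 and -0.02 at these times. In limma's moderated F test over the 5 times, 8 of the 11 probes passed, where 54.5% of all probes did. The members were chosen with earlier results of these data known, so counts beside the shares of all probes are description, not a test.

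**Figure D1:**
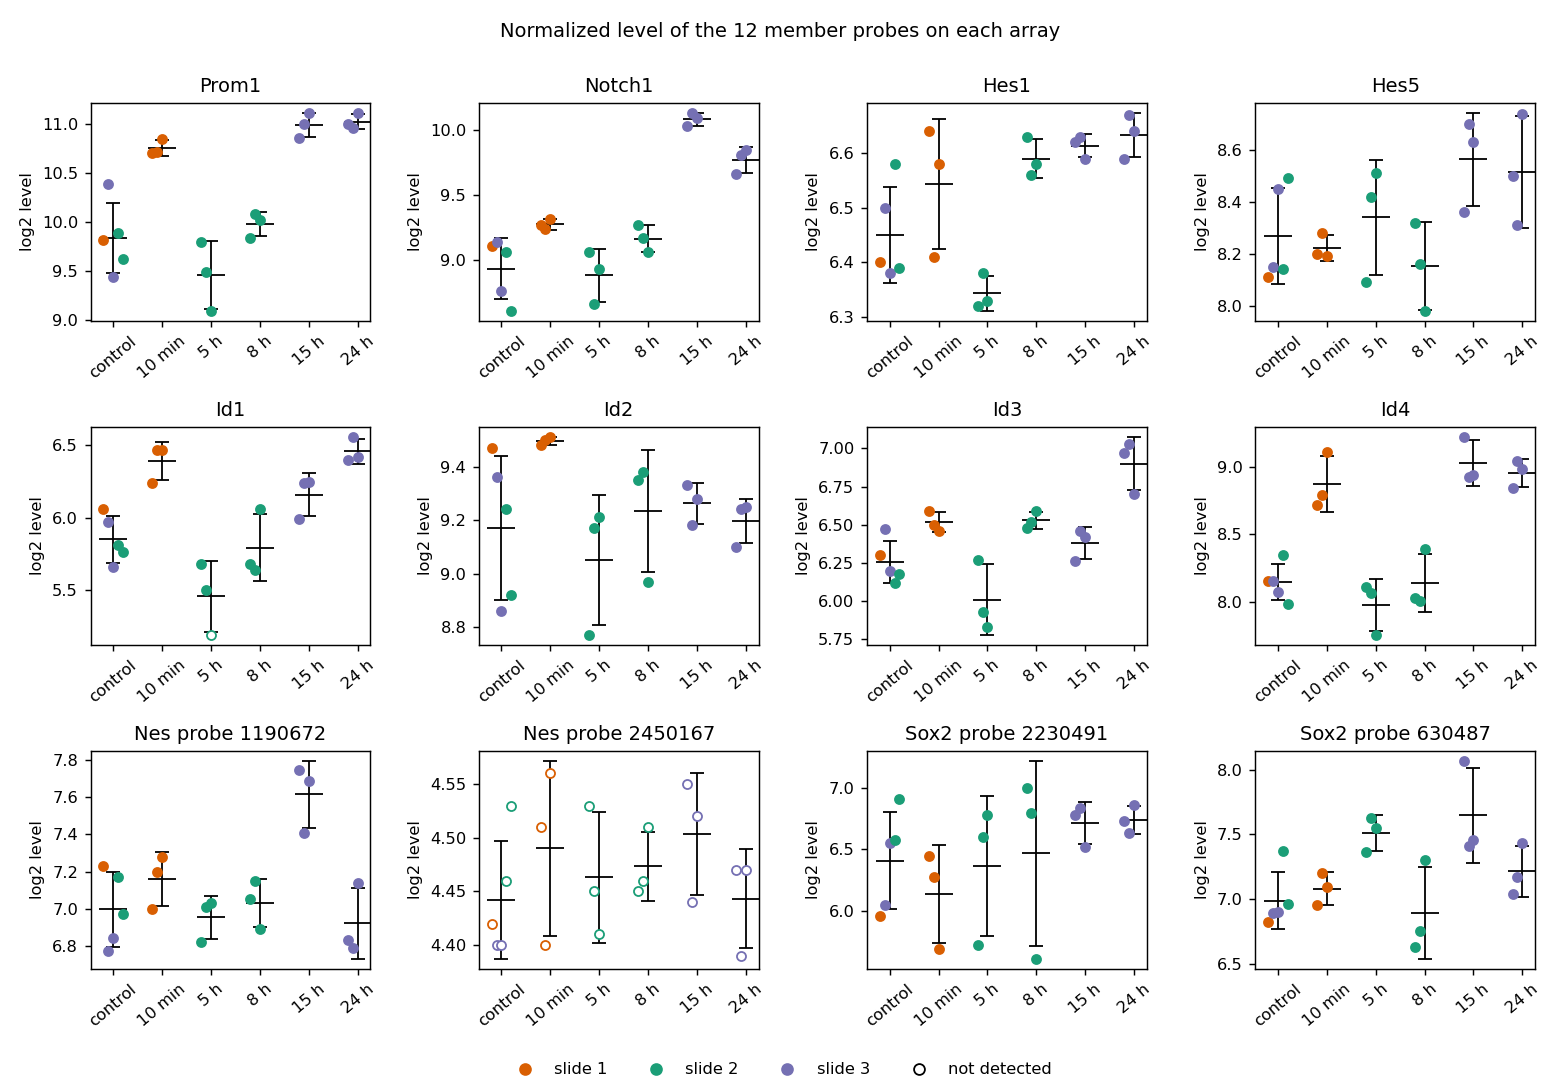
Normalized log2 level (vertical axis) of each of the 12 member probes on every array, by group (horizontal axis, control and then OGD of 10 min to 24 h), with the group mean and SD as black bars and the slide as colour. The vertical axes differ between panels. Prom1, Notch1 and Id4 lie above all 5 controls at 10 min, 15 h and 24 h, and open points, all of Nes probe 2450167 and 1 of Id1, were not detected.

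The count of 0 at 5 h and at 8 h comes from limma's test over all probes. At an unadjusted p under 0.05, 4 of the 11 members passed at 5 h, where 21.8% of all probes did, and 1 at 8 h, where 6.39% did. At 5 h Prom1 (-0.38), Id1 (-0.39) and Id3 (-0.24) were lower and Sox2 probe 630487 (0.52) was higher. The 1 at 8 h was Id3 (0.28). After adjustment, at 5 h 2.83% of all tested probes were called, and at 8 h 0% were. With the slide as a block, which sets each time against the controls of its own slide, the counts of called members were 2 at 10 min (Prom1 and Id4), 0 at 5 h, 0 at 8 h, 5 at 15 h and 5 at 24 h. With this block 5.4%, 0%, 0%, 14% and 7.68% of all probes were called higher, and the members called at 15 h and 24 h were those named above.

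Notch1 encodes the receptor. It read 9.27, 9.24 and 9.32 on the 10 min arrays, against 9.11, 9.14, 8.76, 9.06 and 8.61 on the controls. It read 9.06, 8.66 and 8.93 at 5 h and 9.27, 9.17 and 9.06 at 8 h. At 15 h it read 10.03, 10.13 and 10.09, and at 24 h 9.66, 9.81 and 9.85. All arrays of 10 min, 15 h and 24 h lay above the highest control, at 10 min by little, and the 5 h and 8 h arrays overlapped the controls. The change was 1.15 ± 0.12 at 15 h (SE, n = 3 against 5, limma adjusted p = 1.74e-06), or 2.21-fold, and 0.84 ± 0.12 at 24 h (adjusted p = 4.87e-05), or 1.79-fold. Within slide 3 these changes were 1.13 and 0.82 (adjusted p = 0.000101 and 0.00209). From low to high the groups ran 5 h, control, 8 h, 10 min, 24 h and 15 h, and ranges of neighbouring groups were separate between 10 min and 24 h and between 24 h and 15 h. The difference of 24 h from 15 h was -0.31 ± 0.13 (adjusted p = 0.254) and was not called.

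The smaller Notch1 change at 10 min, 0.34 ± 0.12 (adjusted p = 0.0439), was less secure. It was 0.17 within slide 1 (adjusted p = 0.587), where control replicate 1, at 9.11, is the only control. The call was also lost with no detection filter (adjusted p = 0.0766) and with only the groups compared (0.133). It was lost without control replicate 3 or 5, without 5 h replicate 3, without 8 h replicate 2, and without any single array of 10 min, 15 h or 24 h, at adjusted p = 0.0502 to 0.134.

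In the main analysis the Notch targets Hes1 and Hes5 were not called against the controls at any time. Hes1 read 6.64, 6.41 and 6.58 at 10 min, against 6.40, 6.50, 6.38, 6.58 and 6.39 on the controls. It averaged 6.35 ± 0.03 at 5 h, 6.59 ± 0.03 at 8 h, 6.61 ± 0.02 at 15 h and 6.63 ± 0.04 at 24 h (SD, n = 3 each), against 6.45 ± 0.09 in the controls (SD, n = 5). The 15 h and 24 h arrays lay just above the highest control. Before normalization the mean Hes1 signal was 118.5 at 15 h and 117.4 at 24 h, against 122.6 in the controls. The changes, 0.16 ± 0.08 at 15 h and 0.18 ± 0.08 at 24 h (SE), were not called (adjusted p = 0.103 and 0.0826), although the 24 h change passed without control replicate 4 (adjusted p = 0.0461) and both passed with no detection filter (0.0459 and 0.0335). Hes1 passed the F test (adjusted p = 0.0367), but not with the slide as a block (0.111) or with the authors' normalized ratios (0.833). It also failed the F test without control replicate 3 or 5, without any single array of 5 h or 15 h, without 8 h replicate 1 or 2, and without 24 h replicate 2 or 3 (adjusted p = 0.0508 to 0.0875).

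Hes5, the second Notch target, read 8.36, 8.70 and 8.63 at 15 h and 8.50, 8.31 and 8.74 at 24 h, against 8.11, 8.15, 8.45, 8.14 and 8.49 on the controls. The 10 min arrays read 8.20, 8.28 and 8.19, the 5 h arrays 8.09, 8.42 and 8.51, and the 8 h arrays 8.32, 8.16 and 7.98. Every time overlapped the controls. The changes of 0.30 ± 0.13 at 15 h and 0.25 ± 0.13 at 24 h (SE) were not called (adjusted p = 0.0722 and 0.145), and the 15 h change passed without control replicate 5 or without 15 h replicate 1 (0.0429 and 0.0404). Hes5 did not pass the F test (adjusted p = 0.0828), except without 5 h replicate 1 (0.0484). Hes5 was higher at 15 h than at 8 h by 0.41 ± 0.14 (adjusted p = 0.0344), with arrays that did not overlap. That call was lost without 8 h replicate 2 or 3 or 15 h replicate 2 or 3 (adjusted p = 0.0728 to 0.132), with the slide as a block (0.27), with the authors' ratios (a difference of 0.29, 0.0953) and with no detection filter (0.067).

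Promoter sequences are shown for the member promoters that hold the core letters of the RBPJ site, TGGGAA on either strand. RefSeq promoters of GRCm38.p6, from 250 bases before to 50 bases after the start, were at hand for 8 of the 10 genes, with 2 for Prom1. Promoters of Hes1 and Id1 were not at hand and were not searched. TGGGAA was found in 3 of these 9 promoters, those of Hes5, Id4 and Prom1. Of all 32851 promoters in the table, 25.6% hold it. The letters GGCGCC, which read the same on both strands and are known as a binding site of SMAD proteins downstream of bone morphogenetic proteins, were in 3 of the 9, those of Hes5, Id2 and Id4, and in 11.9% of all. Capitals mark both sets of letters, 5′ to 3′ on the gene's strand, and no match overlaps another. In the Hes5 promoter (chr4:154960673-154960972, plus strand) TGGGAA has 2 matches, at window positions 25 and 169, and GGCGCC has 4. The Id4 promoter (chr13:48260866-48261165, plus strand) and the Prom1 promoter (chr5:44101687-44101986, minus strand) hold 1 TGGGAA match each.
Hes5: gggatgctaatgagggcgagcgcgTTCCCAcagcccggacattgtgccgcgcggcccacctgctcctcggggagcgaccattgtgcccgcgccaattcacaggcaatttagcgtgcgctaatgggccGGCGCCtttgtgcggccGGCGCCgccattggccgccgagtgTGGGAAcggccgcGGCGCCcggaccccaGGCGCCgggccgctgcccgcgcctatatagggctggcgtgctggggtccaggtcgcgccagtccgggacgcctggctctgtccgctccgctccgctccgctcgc
Id4: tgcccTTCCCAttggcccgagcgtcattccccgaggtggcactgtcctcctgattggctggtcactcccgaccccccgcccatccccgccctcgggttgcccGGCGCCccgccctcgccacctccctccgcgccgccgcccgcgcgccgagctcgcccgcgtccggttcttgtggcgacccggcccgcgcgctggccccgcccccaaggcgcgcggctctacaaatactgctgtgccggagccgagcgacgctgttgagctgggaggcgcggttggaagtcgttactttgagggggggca
Prom1: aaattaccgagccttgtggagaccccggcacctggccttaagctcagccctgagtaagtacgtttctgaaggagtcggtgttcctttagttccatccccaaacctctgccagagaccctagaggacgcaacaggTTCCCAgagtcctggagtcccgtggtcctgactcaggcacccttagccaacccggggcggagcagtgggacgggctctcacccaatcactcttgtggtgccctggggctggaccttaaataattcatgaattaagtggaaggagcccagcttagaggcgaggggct
Hes5, with the most matches, was not called against the controls at any time in the main analysis, while Id4 and Prom1 were called at 10 min, 15 h and 24 h. Notch1 was called at the same times, and the letters searched are not in its window. A match in these windows is a description of letters, not a measured binding site. Whether the matches bear on the changes was not tested.

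**Figure D2:**
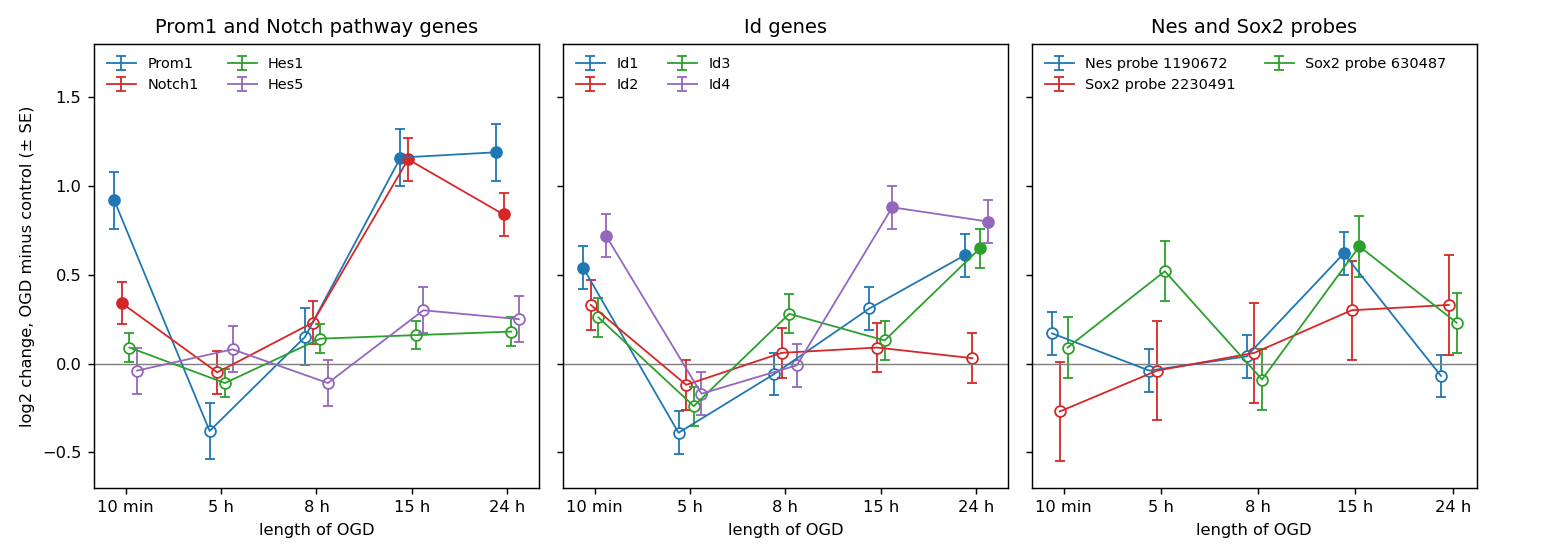
Log2 change against the controls (vertical axis, OGD minus control, with SE, n = 3 against 5) for the 11 tested member probes at each length of OGD (horizontal axis), with called changes as filled points. Prom1, Notch1 and Id4 are called at 10 min, 15 h and 24 h, and every probe is open at 5 h and 8 h.

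The 4 Id genes, inhibitors of proneural factors, did not move as one. Id4, which is known in neural stem cells and astrocytes, had the largest changes of the family at 10 min, 15 h and 24 h. It read 8.72, 8.79 and 9.11 at 10 min, against 8.16, 8.16, 8.08, 8.35 and 7.99 on the controls. It read 8.11, 8.07 and 7.76 at 5 h and 8.03, 8.01 and 8.39 at 8 h, then 9.22, 8.92 and 8.94 at 15 h and 8.84, 9.04 and 8.98 at 24 h. Every array of 10 min, 15 h and 24 h lay above every control, and those of 5 h and 8 h overlapped them. The changes were 0.72 ± 0.12 at 10 min (SE, adjusted p = 0.000754), 0.88 ± 0.12 at 15 h (2.03e-05) and 0.80 ± 0.12 at 24 h (9.1e-05), or 1.65-, 1.84- and 1.75-fold. Within slides they were 0.71, 0.90 and 0.83 (adjusted p = 0.0299, 0.000569 and 0.0033), and without any single array each change stayed called (highest adjusted p = 0.00974 at 10 min).

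Id1 was higher at 10 min and 24 h. It read 6.24, 6.47 and 6.47 at 10 min and 6.40, 6.56 and 6.42 at 24 h, against 6.06, 5.97, 5.66, 5.81 and 5.76 on the controls. Both sets of arrays lay above all controls. The 5 h arrays read 5.68, 5.50 and 5.19, the lowest group mean but overlapping the 8 h arrays and the controls, and the last of these was not detected. The 8 h arrays read 5.68, 5.64 and 6.06 and the 15 h arrays 5.99, 6.24 and 6.25. Id1 changed by 0.54 ± 0.12 at 10 min (SE, adjusted p = 0.00628) and by 0.61 ± 0.12 at 24 h (0.00129). Within slide 1 the 10 min change was 0.33 (adjusted p = 0.276), against control replicate 1, the highest of the 5 controls, and the 24 h change was 0.64 (0.0113). The 15 h change of 0.31 ± 0.12 was not called (adjusted p = 0.0556). It passed without control replicate 1 or 2, 5 h replicate 1 or 3, 8 h replicate 3 or 15 h replicate 1 (0.0303 to 0.0451), and with 75th-percentile scaling (0.0352). The 5 h change was -0.39 ± 0.12 (adjusted p = 0.0804) and was not called.

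Id3 was called at 24 h alone. It read 6.97, 7.03 and 6.70 at 24 h, against 6.30, 6.47, 6.20, 6.12 and 6.18 on the controls. The 10 min arrays read 6.59, 6.50 and 6.46, the 5 h arrays 6.27, 5.93 and 5.83, the 8 h arrays 6.48, 6.52 and 6.59 and the 15 h arrays 6.26, 6.46 and 6.42. The 24 h arrays lay above every array of the other groups. The change at 24 h was 0.65 ± 0.11 (SE, adjusted p = 0.000213), or 1.57-fold, and 0.57 within slide 3 (adjusted p = 0.00972). At 10 min the change of 0.26 ± 0.11 was not called (adjusted p = 0.0872), but it passed without control replicate 2 (0.0244), which at 6.47 lay above the other controls.

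Id3 also differed between successive times. It was higher at 8 h than at 5 h by 0.52 ± 0.12 (SE, adjusted p = 0.0299), the only 1 of the 11 members called there, where 1.23% of all probes were called higher. It was higher at 24 h than at 15 h by 0.52 ± 0.12 (adjusted p = 0.037), 1 of 11 members, where 0.431% of all probes were called higher. The first call was lost without 5 h replicate 2 or 3 or any single 8 h array (adjusted p = 0.0591 to 0.144). The second was lost without 10 min replicate 2, 8 h replicate 2, any single 15 h array, or 24 h replicate 1 or 2 (0.0521 to 0.21). Both were also lost with the authors' ratios, at differences of 0.28 and 0.36 (0.0602 and 0.0907), the first with only the groups compared (0.0896) and the second with no detection filter (0.0554). Both passed when the slide was a block (0.0268 and 0.031).

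Id2 was not called in any comparison of the main analysis. It read 9.48, 9.50 and 9.51 at 10 min, against 9.47, 9.36, 8.86, 9.24 and 8.92 on the controls. The other times ranged over 8.77 to 9.21 at 5 h, 8.97 to 9.38 at 8 h, 9.18 to 9.33 at 15 h and 9.10 to 9.25 at 24 h. The 10 min arrays lay above all controls, by 0.01 above control replicate 1 of the same slide. The 10 min change was 0.33 ± 0.14 (SE, adjusted p = 0.0933), and 0.03 with the slide as a block. It passed without control replicate 1 or 2 (adjusted p = 0.0407 and 0.0438), and at 0.37 with 75th-percentile scaling or the authors' ratios (0.0486 and 0.0421). At 15 h and 24 h the change was 0.09 ± 0.14 and 0.03 ± 0.14 (adjusted p = 0.616 and 0.899).

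Prom1 encodes prominin, the CD133 membrane protein used to isolate neural stem cells, and had the largest changes of the 10 genes at 10 min and 24 h, and at 15 h one close to that of Notch1. It read 10.70, 10.71 and 10.85 at 10 min, against 9.82, 10.39, 9.44, 9.89 and 9.62 on the controls. It read 9.79, 9.49 and 9.09 at 5 h and 9.84, 10.08 and 10.02 at 8 h. At 15 h it read 10.86, 11.00 and 11.11, and at 24 h 11.00, 10.96 and 11.11. Every array of 10 min, 15 h and 24 h lay above every control, and the 5 h and 8 h arrays overlapped them. The changes were 0.92 ± 0.16 at 10 min (SE, adjusted p = 0.0012), 1.16 ± 0.16 at 15 h (2.62e-05) and 1.19 ± 0.16 at 24 h (4.68e-05), or 1.89-, 2.23- and 2.28-fold. Within slides they were 0.93, 1.07 and 1.11 (adjusted p = 0.034, 0.00136 and 0.00339).

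Control replicate 2 gave the highest Prom1 level of the controls, 10.39, with 9.44 to 9.89 on the other 4. It also lay above the other controls for Notch1 and Id3, below them for Nes, and within their range for the other 7 tested probes. On the first principal component of all tested probes, the main axis of difference between arrays (52% of the variance), it lay at 9.7. The other controls lay at -24.9 to -14.7 and the 10 min arrays at 12.4 to 15.7. Control replicate 2 is also 1 of the 2 controls of slide 3. On this array the summed normalized signal of 11 astrocyte markers was 26549, against 17974 to 24062 on the other controls. Without it the Prom1 changes were all still called and the difference of 8 h from 5 h, 0.52 ± 0.18 (adjusted p = 0.115), passed as well (0.0365). In order of mean level the groups ran 5 h, control, 8 h, 10 min, 15 h and 24 h, with separate ranges between 8 h and 10 min and between 10 min and 15 h.

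Nes encodes nestin, an intermediate filament protein of neural progenitors and reactive astrocytes. Its probe 1190672 read 7.75, 7.41 and 7.69 at 15 h, against 7.23, 6.77, 6.84, 7.17 and 6.97 on the controls. It read 7.0, 7.20 and 7.28 at 10 min, 6.82, 7.01 and 7.03 at 5 h and 7.05, 7.15 and 6.89 at 8 h. At 24 h it read 6.83, 6.79 and 7.14. The 15 h arrays stood above every array of the other groups, and all other times overlapped the controls. Before normalization the 15 h signal, 177.8 to 242.6, overlapped that of the controls, 132.5 to 202.4. The change at 15 h was 0.62 ± 0.12 (SE, adjusted p = 0.000495), or 1.54-fold, and 0.81 within slide 3 (adjusted p = 0.000462). At 24 h it was -0.07 ± 0.12 (adjusted p = 0.699).

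The difference of Nes at 24 h from 15 h was -0.69 ± 0.14 (SE, adjusted p = 0.0144), and 0.613% of all probes were called lower in this comparison. Both times share slide 3. The call was lost without 15 h replicate 1 or 3 or 24 h replicate 1 or 2 (adjusted p = 0.091 to 0.12), with a difference of -0.63 to -0.65. The other Nes probe, 2450167, was not detected on any of the 20 arrays. It read a signal of 39.0 to 54.0 before normalization and gives no second reading of Nes.

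Sox2, a transcription factor that maintains neural stem cells, has 2 detected probes whose values differed in pattern. Probe 630487 read 8.07, 7.41 and 7.46 at 15 h, against 6.82, 6.89, 6.90, 7.37 and 6.96 on the controls. It read 6.95, 7.20 and 7.09 at 10 min, 7.36, 7.63 and 7.55 at 5 h, 6.63, 6.75 and 7.30 at 8 h and 7.04, 7.17 and 7.43 at 24 h. The 15 h arrays were above all controls, of which replicate 4 was the highest. Before normalization the 15 h signal of this probe, 174.6 to 295.0, overlapped that of the controls, 141.5 to 224.0. The change at 15 h was 0.66 ± 0.17 (SE, adjusted p = 0.00374), or 1.58-fold, 0.75 within slide 3 (0.0113), and 0.45 without 15 h replicate 1 (adjusted p = 0.0498). At 5 h the change was 0.52 ± 0.17 (adjusted p = 0.0803) and was not called, but passed with the authors' ratios (0.57, 0.0336). The 8 h level differed from that of 5 h by -0.62 ± 0.19 (adjusted p = 0.0746), which passed without 8 h replicate 3 (0.0279) and with the authors' ratios (-0.63, 0.0372).

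Probe 2230491 of Sox2 read 6.78, 6.84 and 6.52 at 15 h and 6.73, 6.63 and 6.86 at 24 h, against 5.96, 6.05, 6.55, 6.58 and 6.91 on the controls. The arrays of 1 group spread widely, over 5.72 to 6.78 at 5 h and 5.61 to 7.0 at 8 h, and every time overlapped the controls. The change was 0.30 ± 0.28 at 15 h and 0.33 ± 0.28 at 24 h (SE, adjusted p = 0.42 and 0.406). Its standard error was the largest of the 11 probes. The Sox2 call at 15 h thus rests on 1 of its 2 probes.

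**Figure D3:**
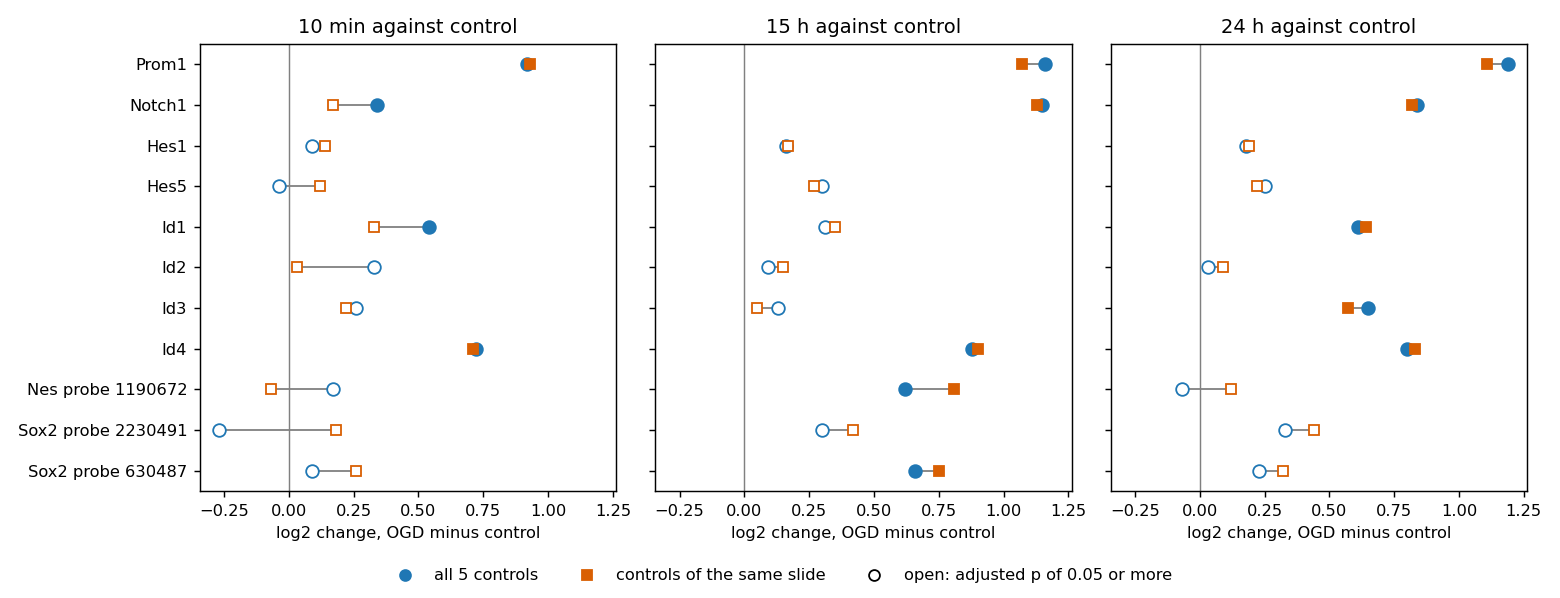
Log2 change against all 5 controls (circles) and against the controls of the same slide (squares), horizontal axis, for the 11 tested probes (vertical axis) at 10 min, 15 h and 24 h, filled where the adjusted p was under 0.05. Prom1 and Id4 lie close to each other by both readings at 10 min, 0.92 and 0.93 for Prom1, while Notch1, Id1 and Id2 lie nearer to 0 within the slide.

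Between 8 h and 15 h most of the members rose. Called higher at 15 h than at 8 h were 7 of 11 probes, where 16% of all probes were. Prom1 was higher by 1.01 ± 0.18, Notch1 by 0.92 ± 0.13, Id4 by 0.89 ± 0.14, Sox2 probe 630487 by 0.75 ± 0.19, Nes by 0.58 ± 0.14, Hes5 by 0.41 ± 0.14 and Id1 by 0.37 ± 0.14 (SE, n = 3 each, limma adjusted p = 5.07e-05 to 0.0472). The arrays of both times did not overlap for these probes except Id1, whose ranges overlapped. Id3 arrays did not overlap either and lay lower at 15 h, by -0.15 ± 0.12 (limma adjusted p = 0.366), which was not called. The share of all probes with separate ranges is not given, so these separations are description only. The 2 times lay on different slides. With the slide as a block, the difference is that of each time's change from the 2 controls of its own slide. Notch1, Id4, Nes and the Sox2 probe, 4 of the 11, then stayed called (adjusted p = 0.0203 to 0.0453), where 3.23% of all probes were called higher, and Prom1 (0.0895), Hes5 (0.27) and Id1 (0.367) did not. The Id1 call was also lost without control replicate 4 or 5, 10 min replicate 2 or 3, 5 h replicate 2, 8 h replicate 1 or 2, 15 h replicate 2 or 3, or any single 24 h array (0.0518 to 0.174), and with the authors' ratios, no detection filter or only the groups compared (0.0668 to 0.0981).

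Genes whose changes over the 5 times were nearest to those of the 4 members with the smallest F test p were read from 9109 named probes of other genes. Likeness was the root mean square difference of the 5 log2 changes. Nearest to Prom1 were Scara3 (0.0727), Pdlim4 (0.0747) and Dhrs4 (0.0808), where the median over all probes was 0.894. Nearest to Notch1 were Rfx2 (0.0864), Inppl1 (0.0913) and Ddr1 (0.105), with a median of 0.693. Nearest to Id4 were Ptgis (0.0572), Pygb (0.0659) and Josd2 (0.066), with a median of 0.66. Nearest to Id1 were Gal3st1 (0.0718), Rab24 (0.08) and Ramp1 (0.0803), with a median of 0.473. Scara3, for example, changed by 0.85, -0.28, 0.18, 1.10 and 1.10 from 10 min to 24 h. All of these changes share the 5 control arrays.

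Of the other genes of the Notch pathway some were called higher and some lower, as were probes of the whole array. Of 46 listed ligands, receptors, cleavage enzymes, cofactors and targets, 29 were tested. At 10 min 4 were higher and 4 lower, at 5 h 1 and 1, at 8 h 0 and 0, at 15 h 8 and 4, and at 24 h 5 and 3. Of all tested probes, 11%, 18.7% and 14.7% were called higher at 10 min, 15 h and 24 h. Called lower were 9.39%, 19.9% and 14.4%, and 2.83% were called in either direction at 5 h. At 10 min and 24 h the list's counts lay near the shares of all probes. Without control replicate 2 the list's counts were 7 and 6 at 10 min, 0 and 1 at 5 h and 6 and 5 at 24 h. The shares of all probes without this array are not given. With all controls the list's median change was -0.03, 0.03, 0.00, 0.01 and 0.10, where that of all probes was -0.01, 0.00, 0.00, -0.02 and -0.02. Psenen, a subunit of the γ-secretase that cuts Notch receptors, averaged 11.40 ± 0.01 at 15 h (SD, n = 3), against 10.93 ± 0.02 in the controls (SD, n = 5). Its change was 0.47 ± 0.07 at 15 h (SE, adjusted p = 5.88e-05) and 0.30 ± 0.07 at 10 min (0.00929, and 0.116 with the slide as a block). Adam17, a protease that can cut Notch receptors, was higher at 24 h by 0.48 ± 0.12 (adjusted p = 0.00492) and the receptor gene Notch3 by 0.63 ± 0.16 (0.0069, and 0.189 with the block).

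Lower in this list was Fbxw7, which marks the freed inner part of Notch for destruction. It changed by -0.40 ± 0.11 at 10 min, -0.60 ± 0.11 at 15 h and -0.52 ± 0.11 at 24 h (SE, adjusted p = 0.0174, 0.000327 and 0.00184). Within slides only the 15 h change of these 3 passed (0.152, 0.0127 and 0.0545). Dner, a neuronal Notch ligand, averaged 12.34 ± 0.07 at 15 h and 12.89 ± 0.10 in the controls (SD, n = 3 and 5), a change of -0.55 (adjusted p = 6.43e-05). Spen, a corepressor that acts with RBPJ, changed by -0.42 at 10 min (adjusted p = 0.0121). At 5 h the ligand gene Dll3 changed by 0.71 and the receptor gene Notch4 by -0.42 (adjusted p = 0.049 and 0.0321), neither of which passed with the slide as a block (0.322 and 0.3). With this block the list's counts of higher and lower genes were 1 and 2 at 10 min, 0 and 0 at 5 h, 5 and 3 at 15 h and 2 and 0 at 24 h. At these times 5.4%, 0%, 14% and 7.68% of all probes were called higher with the block. The share called lower with it is not given.

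The bone morphogenetic protein and SMAD pathway, which acts upstream of the Id genes, had 12 of 30 listed genes tested. At 10 min 1 was higher and 2 lower, at 5 h 1 and 0, at 8 h 0 and 0, at 15 h 3 and 3, and at 24 h 2 and 3. With the slide as a block the counts were 1 and 2 at 10 min, 0 and 0 at 5 h, 3 and 2 at 15 h and 2 and 1 at 24 h. At these times 5.4%, 0%, 14% and 7.68% of all probes were called higher with the block. The share called lower with it is not given. Without the block the medians of the list were -0.06, 0.12, 0.06, 0.05 and -0.03. Among all tested probes, 11%, 18.7% and 14.7% were then higher and 9.39%, 19.9% and 14.4% lower at 10 min, 15 h and 24 h. The receptor gene Bmpr1a averaged 9.60 ± 0.16 at 15 h, against 8.85 ± 0.23 in the controls (SD, n = 3 and 5), a change of 0.75 ± 0.12 (SE, adjusted p = 6.92e-05), and changed by 0.62 at 24 h (0.00068). Fst, whose product follistatin binds activins and bone morphogenetic proteins, changed by -0.85 ± 0.16 at 10 min, -1.02 ± 0.16 at 15 h and -0.86 ± 0.16 at 24 h (adjusted p = 0.002, 7.95e-05 and 0.000661). Twsg1, a secreted binding protein of these ligands, was higher by 0.31 at 10 min, 0.54 at 15 h and 0.41 at 24 h (0.0201, 0.000128 and 0.00226), though at 10 min not with the slide as a block (0.182). The signal transducer Smad1 was higher by 0.47 at 5 h (adjusted p = 0.049, and 0.212 with the block). Bmp7, detected on 4 of 5 controls and on 0 of the 3 arrays at 10 min, was lower there by at least 1.22-fold (limma adjusted p = 0.00788). This bound sets the control mean against the lowest signal among detected probes of each 10 min array.

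Among E proteins and proneural factors, the partners that Id proteins hold back, 8 of 17 listed genes were tested. Higher and lower were 0 and 1 at 10 min, 0 and 0 at 5 h, 0 and 0 at 8 h, 1 and 1 at 15 h and 2 and 1 at 24 h, with medians of -0.03, 0.06, 0.07, -0.07 and 0.00. Without control replicate 2 the counts were 2 and 2 at 10 min, 1 and 2 at 15 h and 3 and 2 at 24 h. Shares of all probes, with all controls, were 11%, 18.7% and 14.7% higher and 9.39%, 19.9% and 14.4% lower at these times. The shares without control replicate 2 are not given. Neurod2, a factor of maturing cortical neurons, averaged 9.99 ± 0.13 at 10 min, 10.09 ± 0.02 at 15 h and 9.94 ± 0.08 at 24 h (SD, n = 3 each), against 10.68 ± 0.22 in the controls (SD, n = 5). Its changes were -0.69, -0.60 and -0.74 (adjusted p = 0.000489, 0.000255 and 7.41e-05). The E protein gene Tcf3 was higher by 0.47 at 15 h and 0.32 at 24 h (0.000613 and 0.0136), and Neurog2, a proneural factor, by 0.54 at 24 h (0.0112).

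Of other neural progenitor genes, several rose at 15 h and 24 h. Of 27 listed, 15 were tested, and higher and lower were 2 and 0 at 10 min, 0 and 0 at 5 h, 0 and 0 at 8 h, 8 and 1 at 15 h and 7 and 1 at 24 h. The medians were 0.17, 0.06, 0.07, 0.35 and 0.31. Among all tested probes, 11%, 18.7% and 14.7% were higher and 9.39%, 19.9% and 14.4% lower at 10 min, 15 h and 24 h. Nr2e1, a nuclear receptor that maintains neural stem cells, averaged 9.39 ± 0.15 at 10 min, 9.49 ± 0.09 at 15 h and 9.50 ± 0.06 at 24 h (SD, n = 3 each), against 8.59 ± 0.21 in the controls (SD, n = 5). Its changes of 0.80, 0.90 and 0.91 were called (adjusted p = 0.000244, 8.63e-06 and 2.28e-05). Vim, an intermediate filament gene of radial glia and astrocytes, was higher by 0.95 at 15 h and 0.69 at 24 h (3.72e-06 and 0.000123). Sox21 was higher by 0.43 at 15 h (0.00116), the cyclin gene Ccnd1 by 0.66 at 10 min (0.00486) and Mcm2, a subunit of the replication helicase that the list of cycling markers also holds, by 0.60 at 24 h (0.000398). With the slide as a block the counts were 2 and 0 at 10 min, 8 and 0 at 15 h and 5 and 1 at 24 h, and without control replicate 2 they were 3 and 2, 7 and 2, and 7 and 2. At these times 5.4%, 14% and 7.68% of all probes were called higher with the block. The share called lower with it, and the shares without control replicate 2, are not given.

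Most tested markers of astrocytes were higher at 10 min, 15 h and 24 h, the times at which Prom1, Notch1 and Id4 were called. Of the 9 tested astrocyte markers, 6 were higher at 10 min, 0 at 5 h, 0 at 8 h, 9 at 15 h and 8 at 24 h, and 0 were lower at any time. The medians were 0.74, -0.29, -0.01, 0.64 and 0.92. Their summed normalized signal over 11 genes was 17974 to 26549 on the controls, 29278 to 32062 at 10 min, 17728 to 18064 at 5 h, 21628 to 23529 at 8 h, 35599 to 38151 at 15 h and 32385 to 37061 at 24 h. Slc1a2 and S100b, whose products are a glutamate transporter and a calcium-binding protein of astrocytes, were not detected on any array. Within slides the counts higher were 3 at 10 min, 7 at 15 h and 8 at 24 h, where 5.4%, 14% and 7.68% of all probes were. Of all tested probes, with all controls, 11%, 18.7% and 14.7% were called higher at these times, and 9.39%, 19.9% and 14.4% lower. Without control replicate 2 the counts of astrocyte markers higher were 7, 9 and 8, and 1 of these markers was lower at 10 min. Neuron markers went the other way. Of 9 tested, 2 were lower at 10 min, 9 at 15 h and 4 at 24 h, with medians of -0.24, -0.64 and -0.22, and 0 were lower at 5 h or 8 h. Within slides 1 was lower at 10 min, 8 at 15 h and 1 at 24 h (3, 9 and 5 without control replicate 2). The share of all probes called lower within slides, and the shares without control replicate 2, are not given. Their summed signal was 20052 to 23511 on the controls, 18876 to 20194 at 10 min, 23731 to 25730 at 5 h, 20919 to 21919 at 8 h, 13855 to 15017 at 15 h and 16513 to 18837 at 24 h. The part of astrocytes or of the loss of neuronal RNA in the changes of the members was not tested.

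**Figure D4:**
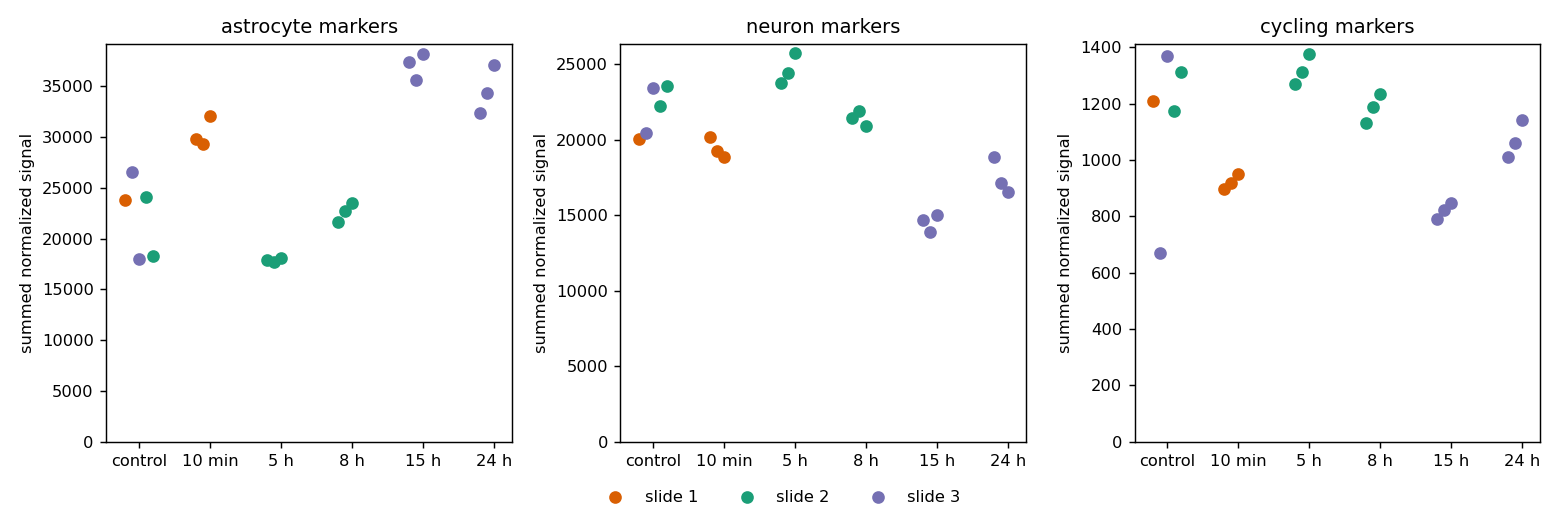
Summed normalized signal on each array (vertical axis, linear scale from 0) of the astrocyte, neuron and cycling marker lists by group (horizontal axis), with the slide as colour. The astrocyte sum is above all controls at 10 min, 15 h and 24 h, the neuron sum is below all controls at 15 h and 24 h, and the lowest cycling sum is that of control replicate 2, at 671.

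Of 5 tested markers of microglia and macrophages, 2 were higher at 10 min, 4 at 15 h and 4 at 24 h (2, 3 and 2 within slides), at a low summed signal of 267 to 314 on the controls and 339 to 498 at those 3 times. Aif1 and Itgam, both defining markers, were not detected on any array. Of 12 vascular and fibroblast markers with a probe, 3 were detected, 2 of which were higher and 1 lower at each of 10 min, 15 h and 24 h (1 and 1 within the slide at 10 min). The endothelial markers Cldn5, Pecam1, Flt1, Kdr, Cdh5 and Tek were not detected on any array. Of 7 tested cycling markers, 2 were lower at 10 min and 3 at 15 h, and 1 was higher at 24 h. Without control replicate 2, 4 were lower at 10 min, 5 at 15 h and 4 at 24 h, whereas within slides 0 were lower at these times. Their summed signal was 671 to 1369 on the controls, 898 to 951 at 10 min, 1270 to 1377 at 5 h, 1130 to 1235 at 8 h, 791 to 849 at 15 h and 1010 to 1143 at 24 h. Of 5 tested oligodendrocyte lineage markers, 1 was lower at 10 min, 2 at 15 h and 1 at 24 h (1, 1 and 1 within slides, and 1, 3 and 2 without control replicate 2), and Mog and Mag were not detected on any array. Beside these counts, 11%, 18.7% and 14.7% of all tested probes were called higher at 10 min, 15 h and 24 h. Called lower were 9.39%, 19.9% and 14.4%. Within slides 5.4%, 14% and 7.68% were called higher at these times. The share called lower within slides, and the shares without control replicate 2, are not given. The part of these lists in the results was not tested.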

How the data were processed

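Per the labels, biotinylated cRNA was hybridised to Illumina MouseRef-8 v1.1 arrays, and the submitters' processing notes name BeadStudio 3.1.7. The deposited probe profile gives each probe's average signal as an intensity without normalization, a detection score (1 minus the detection p), the bead standard deviation as an intensity and bead numbers as counts, per the file headers. The 80 other columns of per-array values were not used. The authors' normalized table, whose values are a ratio to the control median, served as an alternative, and its 5 control columns, which hold another control array's values than their labels name, as a group only.

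Probes were named by the profile's own identifiers, paired with platform symbols through identical values (24167 pairs). This named 20614 probes and left 4006 unnamed. The processed tables carry other identifiers beside the same values, with 2 of 24601 linked rows alike. With the profile's names, 56 ribosomal protein probes had a median signal percentile of 98.9, against 50.1 with the other names. The identifier holds the gene's number for 5 of the 12 member probes, and the other 7 hold none. All values given for a gene depend on this naming.

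Without 7 bacterial control probes, intensities went through neqc, a normexp background correction and quantile normalization (limma 3.58.1, R 4.3.3, offset 16) on the log2 scale. Probes detected at p under 0.01 on at least 3 of 20 arrays were fitted with 6 groups in limma and tested two-sided, adjusted by Benjamini-Hochberg per comparison at 0.05. The 8 comparisons were each time against control and 8 h against 5 h, 15 h against 8 h and 24 h against 15 h, beside the F test. For lists, the probe with the highest mean stands for its gene. Named were all member probes, up to 3 genes past the test with the smallest adjusted p per pathway list and time, and the 3 nearest genes of 4 members. The scripts were tested on simulated data. Members and lists were chosen with earlier results of these data known.

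Each member value rests on 18 to 80 beads, with a bead standard error of 2.41% to 12.0% of the signal (median 4.81%), which covers bead error only. The alternatives were a fixed or random block for the slide, a replicate block, 75th-percentile scaling, the authors' ratios, other detection filters, fits of only the groups compared and leaving out each array.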

Additional observations from a re-analysis of the deposited data

Results flagged for a closer look

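Levels of several members differed between successive lengths of OGD in limma's test of that difference (n = 3 each, log2 scale). At 15 h against 8 h, Prom1 differed by 1.01, Notch1 by 0.92, Id4 by 0.89, Sox2 probe 630487 by 0.75, Nes probe 1190672 by 0.58, Hes5 by 0.41 and Id1 by 0.37, and these times lay on different slides. At 8 h against 5 h, Id3 differed by 0.52. At 24 h against 15 h, Id3 differed by 0.52 and Nes probe 1190672 by -0.69. Among the controls, 1 array lay far from the others: Sox2 probe 630487 read 7.37 on control replicate 4, with 6.82 to 6.96 on the other 4. That check covered 11 probes in the controls, and chance marks about 1 in 20 such groups. Without this array the Sox2 change at 15 h was still called.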

How the results depend on the processing

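Of 24 called changes of single member probes, 16 were called under all 29 alternatives, and 0 of the 88 changes tested turned their direction while called. Counts of called members moved as follows. At 10 min the count was 4, and 2 with the slide as a fixed block. At 5 h it was 0, and 1 with 75th-percentile scaling (Id1, -0.46) and 1 with the authors' ratios (Sox2 probe 630487, 0.57). At 8 h against 5 h it was 1, and 0 with only the groups compared, and with the authors' ratios the 1 was Sox2 probe 630487 in place of Id3. At 15 h against 8 h it was 7, and 4 with the slide as a fixed block. At 24 h against 15 h it was 2, and 1 with the authors' ratios or no detection filter. Without 5 h replicate 1 and 8 h replicate 3, chosen after seeing the data, the counts were 1 at 5 h (Id1, -0.51) and 2 at 8 h against 5 h. Leaving out each array in turn gave 3 to 6 members at 10 min, 0 to 0 at 5 h and at 8 h, 5 to 7 at 15 h, 5 to 6 at 24 h, 0 to 2 at 8 h against 5 h, 5 to 7 at 15 h against 8 h, 0 to 2 at 24 h against 15 h and 7 to 8 in the F test. The cause of these moves was not tested.

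Replicate numbers did not pair the arrays. Deviations of same-numbered arrays correlated across probes at -0.585 to 0.454 (median -0.00208, 45 pairs), and 6 of 18 arrays correlated best with their own number. With the replicate number as a block the counts were 2 at 10 min and 1 at 24 h against 15 h, and 20 of the 24 called changes were kept. Signal over background limits Id1, the only tested member with a value not detected, on 5 h replicate 3, since 219 of the 220 values of tested members were detected. Hes1, Id3 and Sox2 probe 2230491 also read low before normalization, down to 109.5, 94.4 and 77.4, where Id1 read down to 70.4. Array medians were 53.1 to 65.4. The number of arrays limits the precision.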
